A study of Mus musculus with 18 samples.

Results

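Tetraspanins are small proteins that cross the membrane several times and gather integrins, immunoglobulin-type receptors and membrane proteases into patches of the cell surface. Members that reside in late endosomes are sorted into the small vesicles that cells release as exosomes, and *Cd63* also marks the membrane of secretory granules, which makes its protein a common surface marker of degranulation in human eosinophils and basophils. *Cd37*, *Cd53* and *Tspan32* are found mainly on blood cells, whereas *Cd9*, *Cd81*, *Cd82* and *Cd151* are carried by many cell types. The genes described here are *Cd9*, *Cd37*, *Cd53*, *Cd63*, *Cd81*, *Cd82*, *Cd151*, *Tspan13*, *Tspan14* and *Tspan32*. They were found by symbol, through the Ensembl identifier that carries each name on the mouse genome build GRCm38. These are 10 of the 54232 genes listed for every library and 10 of the 31 tetraspanins looked for by name.

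RNA of eosinophils was counted in 18 libraries. The cells came from the peritoneal cavity of C57BL/6 mice of the line NJ.1638, which carry an *Il5* transgene that raises eosinophil numbers, and cells binding antibodies to Thy1.2 or B220 were removed with beads. Stimulated cells were kept for 18 h with heat-inactivated *E. coli*, IFN-γ at 50 ng per ml, the pair of these, or IL-4 at 100 ng per ml, in 3 libraries each, and 6 libraries hold unstimulated cells. The age and sex of the mice, the promoter that drives the transgene and the time for which unstimulated cells were kept are not given in the sources used here.

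The libraries form 2 sets by the layout of their count files, and the control of a stimulus was always the unstimulated group that shares its layout. The first set holds 12 libraries, with *E. coli*, IFN-γ, both stimuli, and unstimulated libraries a to c. The IL-4 set holds 6 libraries, with IL-4 and unstimulated libraries d to f. Genes held 1523808 to 2734041 counts per library in the first set and 3625036 to 6482289 in the other. Levels are given as CPM, counts scaled to a fixed library total after TMM normalization. A count of 3, the smallest told apart from 0 here, equals 1.1 to 1.97 CPM in the first set and 0.463 to 0.828 CPM in the other, for counting error only. The study calls its replicates biological. Whether those of a group came from separate animals or separate cultures is not stated, and the p-values measure the spread between these samples. Changes are log2 fold changes ± SE from edgeR, and a gene counts as called where its Benjamini-Hochberg adjusted p over all genes tested is below 0.05. The methods describe CEL-Seq2, which counts transcript ends, and the labels also name an RNA-Seq experiment on another sequencer, HiSeq. Which libraries belong to which is not stated, so the 2 sets may differ in how they measure a gene. Levels are compared between groups of 1 set, and not between genes or between sets. Where a gene is said to lead a list of markers, it held the most CPM of the list on average over the libraries of a set, which does not rank the abundance of transcripts.

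The highest count of any gene lay between 4089 and 4095 in every library of the first set, and between 87377 and 191131 in the IL-4 set. The molecular identifiers of CEL-Seq2 are runs of 6 bases and allow 4096 distinct sequences. The sources do not state whether reads with the same identifier were collapsed, nor that the first set is the one made by that method. A count of collapsed identifiers cannot rise above that number and understates abundant transcripts as it nears it. Among the members, the highest counts in the first set were 3370 for *Cd9*, 2954 for *Cd63*, 2709 for *Cd53* and 1973 for *Cd37*, which are 82.3%, 72.1%, 66.1% and 48.2% of that number. The highest count of each of the other 6 members was at most 10.7% of it. For the most counted members, changes are also given after correction for identifiers drawn repeatedly, an alternative chosen after the data were seen.

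**Figure D1:**
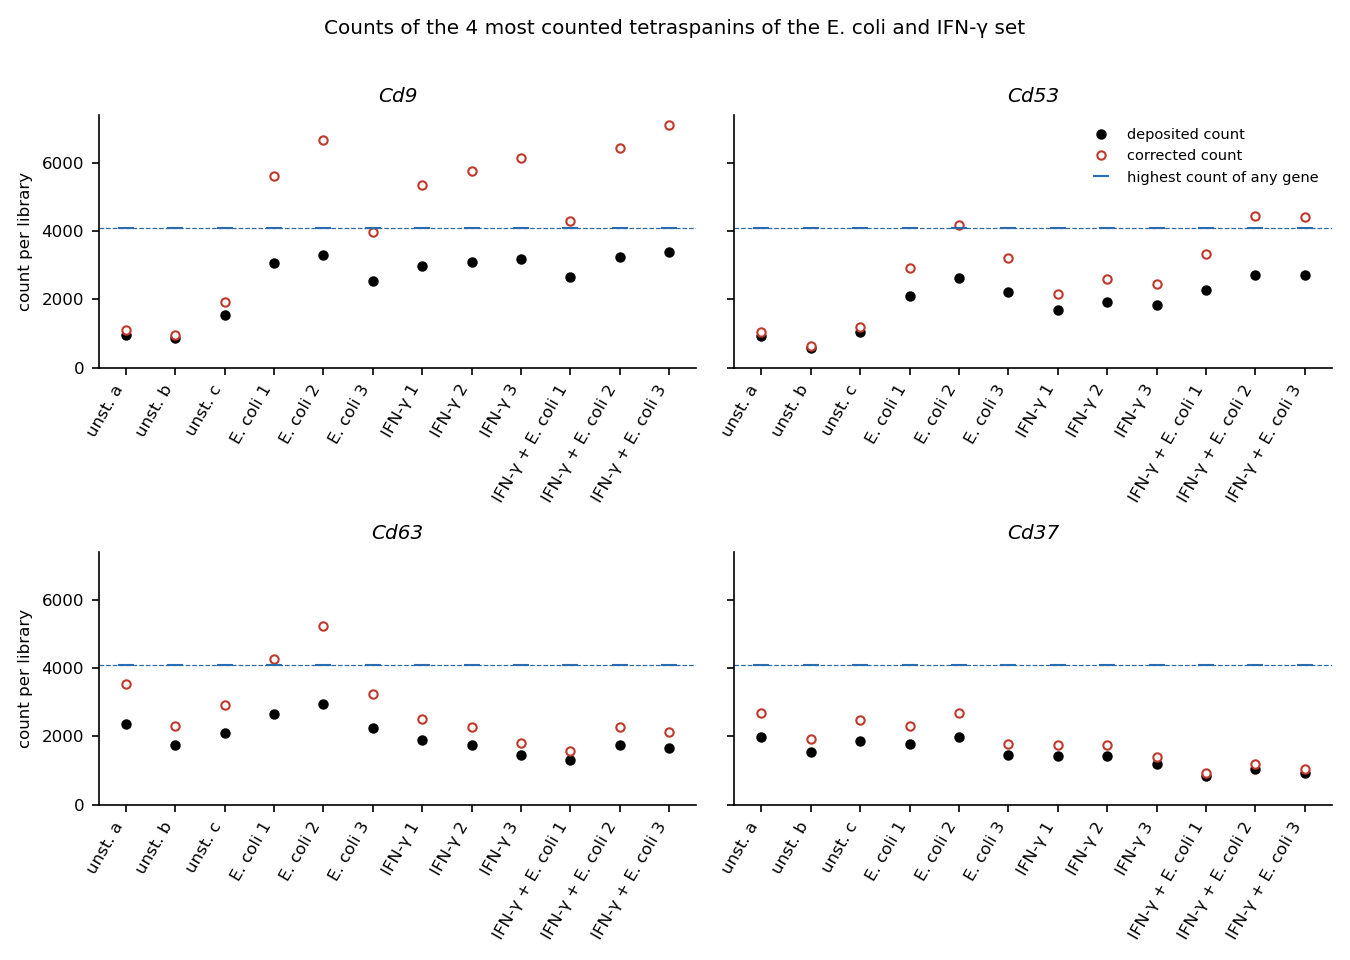
Counts of the 4 most counted members in each of the 12 libraries of the first set as deposited (filled) and after correction for repeated identifiers (open), with dashes for the highest count of any gene and a dashed line at 4096. *Cd9* reached 3370 as deposited and 7087 as corrected in the third library with both stimuli, while the values of unstimulated library a were 965 and 1100.

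Markers were read to check the labelled cell type. All 9 eosinophil markers (*Siglecf*, *Prg2*, *Prg3*, *Epx*, *Ear1*, *Ear2*, *Ear6*, *Ccr3* and *Il5ra*) had over 3 counts in at least 1 library of the IL-4 set, and their summed level was 2685 ± 355 CPM (SD, n = 3) in unstimulated libraries a to c, 2118 ± 106 after *E. coli*, 2394 ± 245 after IFN-γ and 2014 ± 121 with both. It was 3074 ± 500 CPM in unstimulated libraries d to f and 2705 ± 70.7 with IL-4. In the first set 5 of them had enough counts to be tested. *E. coli* raised 1 and lowered 2 of the 5 (median log2 fold change -0.19), IFN-γ lowered 4 (-0.70), and both stimuli raised 1 and lowered 3 (-1.13). IL-4 raised 4 of 9 and lowered 1 (0.39). The eotaxin receptor gene *Ccr3* led them in both sets, at a mean of 1460 CPM over the libraries of the first. *Epx*, *Ear1*, *Ear2* and *Prg3* had too few counts to be tested in the first set. The granule protein gene *Prg3* was at 3 counts or fewer in every library of that set.

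Genes that mark other cells were present at several levels. The 7 B cell markers summed to 221, 198 and 119 CPM in unstimulated libraries a to c, to 41.7, 45.8 and 78 with *E. coli*, to 99.5, 62.6 and 61 with IFN-γ and to 125, 137 and 130 with both. In the IL-4 set they summed to 24.9, 23.9 and 43.8 CPM without stimulus and to 65.5, 60.1 and 73.1 with IL-4. *Ighm*, which encodes an antibody heavy chain, led them in both sets. The B cell markers were thus lower with *E. coli* or IFN-γ alone than in any unstimulated library of that set, and higher with IL-4. The 8 mast cell markers summed to 9.23 ± 1.69 CPM in unstimulated libraries a to c, 18.1 ± 15 after *E. coli*, 21.2 ± 10.1 after IFN-γ and 65.3 ± 22 with both. With IL-4 their sum was 16.6 ± 7.81 CPM, against 8.13 ± 1.59 without it. The tryptase gene *Tpsb2* led them, and *Ms4a2*, a chain of the high-affinity IgE receptor, had at most 3 counts in each library of both sets.

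The 9 macrophage markers summed to 2494 ± 58.8 CPM in unstimulated libraries a to c, 2078 ± 397 after *E. coli*, 3150 ± 200 after IFN-γ and 2925 ± 410 with both. In the IL-4 set their sum was 3870 ± 428 CPM unstimulated and 2568 ± 174 with IL-4. They were led by *Adgre1*, which mouse eosinophils also express, in the first set and by *Lyz2* in the IL-4 set. The 8 neutrophil markers, led by *Retnlg*, summed to 611 ± 73.9, 378 ± 15.7, 640 ± 50.4 and 341 ± 20.2 CPM in the same order and to 1856 ± 170 and 790 ± 32.3 in the IL-4 set. Their granule genes *Elane*, *Mpo*, *Ltf* and *Ngp* had at most 3 counts in the first set. The 7 platelet markers, led by *Pf4*, summed to 549 ± 116, 511 ± 110, 425 ± 15.4 and 524 ± 94.3 CPM, and to 745 ± 77.7 and 623 ± 35.6 in the IL-4 set. *Gp9*, a subunit of the platelet receptor for von Willebrand factor, was at 0 in all 18 libraries. The 9 T and NK cell markers, led by *Cd3d* and with *Klrb1c* at 0, summed to at most 7.1 ± 1.89 CPM in any group, and the 5 mesothelial markers to at most 0.96 ± 0.192 CPM. Some of these cells carry tetraspanins of their own, and the part of any of them in the results was not tested. In bulk RNA, fewer cells of a type and less RNA per cell cannot be told apart.

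Genes known to respond to a stimulus were read beside the labels. They were picked with earlier results of these data known, and the study reports those named here as raised by these stimuli. Their values are thus no independent check of the labels. Of the 9 genes listed, *E. coli* raised 4 and lowered 2 of 8 tested, and IFN-γ raised 5 of 8. Both stimuli raised 6 of 8, and IL-4 raised 5 and lowered 1 of 9. *Cxcl9*, an interferon-induced chemokine, was at 3.16 ± 2.24 CPM in unstimulated libraries a to c and at 343 ± 11.1 with IFN-γ. *Trem1*, an amplifying receptor of innate responses, was at 8.43 ± 1.53 CPM unstimulated and 219 ± 6.64 with *E. coli*. *Ccl8*, a chemokine gene, stood at 10.5 ± 3.59 CPM in unstimulated libraries d to f and at 111 ± 5.78 with IL-4. In each case the groups differed by far more than the spread of their libraries.

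With *E. coli*, *Cd9* and *Cd53* rose and *Tspan13* and *Tspan32* fell. These are 4 of the 10 members (40%), where 30.2% of all 9883 genes tested were called, 13.5% higher and 16.7% lower. At a factor of 2 or more, 3 members and 10.4% of all genes were called. With IFN-γ alone the called members were again *Cd9* and *Cd53*, higher, and *Tspan13* and *Tspan32*, lower (40%), where 31.6% of all genes were called, 15.6% higher and 16% lower. All 4 were also called at a factor of 2 or more, as were 12% of all genes. With both stimuli *Cd37* and *Tspan14* fell as well, which makes 6 members (60%), 2 higher and 4 lower, where 49% of all genes were called, 23.9% higher and 25.2% lower. Of these 4 were also called at a factor of 2 or more, as were 22.4% of all genes. These comparisons share unstimulated libraries a to c.

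With IL-4, *Cd9* and *Tspan13* fell. These 2 members (20%) stand beside 10.3% of 10556 genes called, 5.97% higher and 4.35% lower. All 10 members changed by less than a factor of 2, and 4.53% of all genes were called at that factor or more. In a list of 10 each gene weighs much, and these shares describe the members without setting them apart from other genes. The median log2 fold change of the members was 0.07 with *E. coli*, -0.13 with IFN-γ, -0.08 with both and 0.04 with IL-4. That of all genes tested was -0.02, -0.03, -0.04 and 0.00. All 10 members passed the filter on low counts in every comparison.

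**Figure D2:**
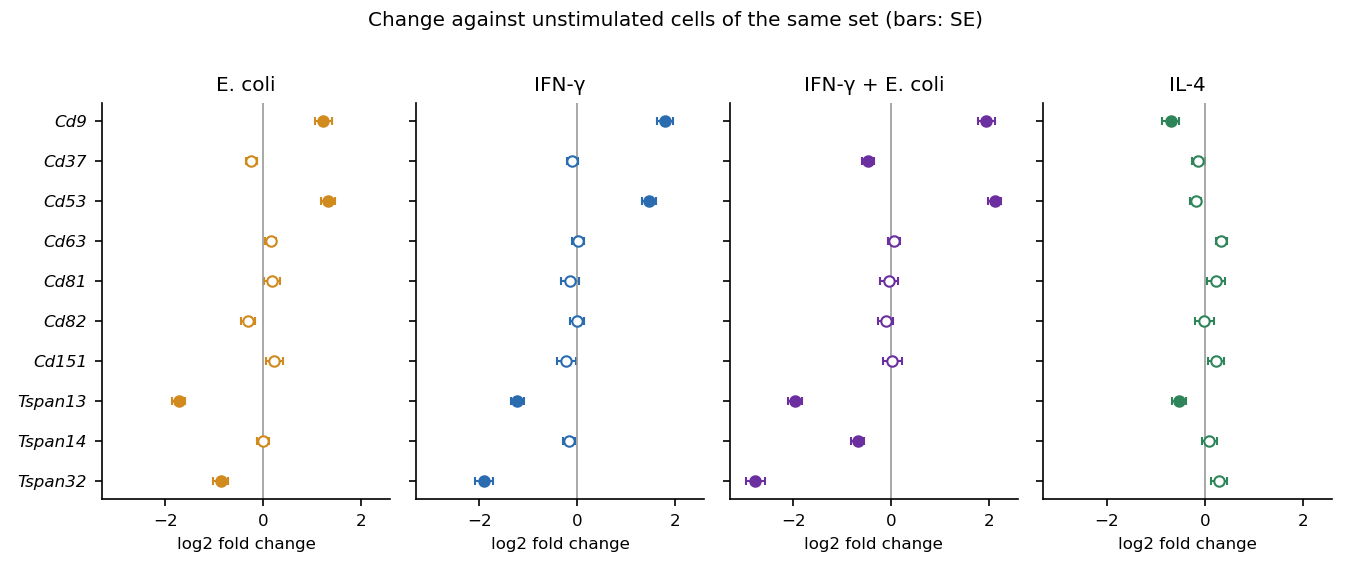
Log2 fold change of the 10 members with each stimulus against unstimulated cells of the same set, with bars for the SE, filled points for genes called at an adjusted p under 0.05 and open points for the others. *Cd9* and *Cd53* lie right of 0 and *Tspan13* and *Tspan32* left of it with *E. coli*, IFN-γ and both, while *Cd9* and *Tspan13* lie left of 0 with IL-4.

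Of the widely carried members that bind integrins and membrane proteases, *Cd9* moved most. It joins integrins and the membrane-bound growth factor encoded by *Hbegf*, and takes part in adhesion and cell fusion. Unstimulated libraries a to c held 357, 540 and 630 CPM of *Cd9*. The values were 1238, 1092 and 1245 CPM with *E. coli*, 1658, 1574 and 2064 with IFN-γ, and 1925, 1764 and 2207 with both stimuli. Every stimulated library lay above every unstimulated one of this set, and the *E. coli* libraries lay below all those that received IFN-γ. The group means were 509 ± 139 CPM (SD, n = 3) unstimulated, 1192 ± 86.2 after *E. coli*, 1766 ± 262 after IFN-γ and 1965 ± 224 with both. The log2 fold change was 1.23 ± 0.17 with *E. coli* (adjusted p = 1.89e-05) and 1.80 ± 0.17 with IFN-γ (adjusted p = 2.10e-07). With both it was 1.95 ± 0.17 (adjusted p = 2.88e-08). After correction for repeated identifiers these became 1.82 ± 0.20, 2.47 ± 0.20 and 2.66 ± 0.21, so that the deposited counts give the smaller estimate. The size of the rise thus depends on what the counts represent, and all of these values passed the test.

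*Cd53* is a tetraspanin of leukocytes that takes part in adhesion and in the surface display of receptors. Its levels were 338, 360 and 423 CPM in unstimulated libraries a to c, 844, 869 and 1090 with *E. coli*, 935, 979 and 1198 with IFN-γ and 1647, 1474 and 1765 with both. No unstimulated library reached a stimulated one, the *E. coli* and IFN-γ libraries overlapped, and those with both stimuli lay above all others of the set. Group means were 374 ± 44.2, 934 ± 135, 1037 ± 141 and 1628 ± 146 CPM (SD, n = 3) in the same order. *Cd53* was 2.5-fold higher with *E. coli* (log2 fold change 1.32 ± 0.14, adjusted p = 7.35e-07) and 2.77-fold higher with IFN-γ (1.47 ± 0.14, adjusted p = 1.75e-07). The rise with both was 4.35-fold (2.12 ± 0.14, adjusted p = 5.32e-10). Correction for repeated identifiers gave 1.71 ± 0.14, 1.72 ± 0.14 and 2.63 ± 0.15 on the log2 scale.

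Markers of other cells moved in the same comparisons. The mast cell markers summed to 7.79 to 11.1 CPM in unstimulated libraries a to c, 7.97 to 35.3 with *E. coli*, 14.9 to 32.8 with IFN-γ and 40.6 to 82.7 with both. The 35.3 CPM are those of *E. coli* library 3, while the other libraries with *E. coli* alone lay within the unstimulated range. Of these markers 2 had enough counts to be tested, and their median log2 fold change was 0.99 after *E. coli*, 1.27 after IFN-γ and 3.05 after the pair. With *E. coli* 0 were called by edgeR, 0 by DESeq2 and 0 at an unadjusted p under 0.05, with IFN-γ 1 was called higher and with both stimuli 2. Of the 9 macrophage markers, 3 were called lower with *E. coli*, 4 higher and 1 lower with IFN-γ, and 2 higher and 1 lower with both. Their summed level was 2430 to 2545 CPM in unstimulated libraries a to c, which overlapped the 1767 to 2525 CPM with *E. coli* and lay below the 2952 to 3352 with IFN-γ and the 2683 to 3398 with both. Platelets also carry CD9, and 4 of their markers were tested. *E. coli* raised 1 and lowered 1, and IFN-γ and both stimuli each raised 1 and lowered 2. Their sum was 479 to 683 CPM in unstimulated libraries a to c, 440 to 637 with *E. coli*, 413 to 442 with IFN-γ and 423 to 610 with both, so that the libraries with IFN-γ alone lay below the unstimulated ones. The part of these cells in the rise of *Cd9* and *Cd53* was not tested.

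Among the members that fell, *Tspan32* had the largest change with IFN-γ and with both stimuli, and *Tspan13* had it with *E. coli*. *Tspan32* is a leukocyte tetraspanin known to restrain T cell activation in mice. Its levels were 155, 130 and 97.6 CPM in unstimulated libraries a to c. After *E. coli* they were 71.7, 64.8 and 73.1 CPM. With IFN-γ they were 35, 36.6 and 30.5 CPM, and with both stimuli 20.3, 22.9 and 12.4. The 4 groups did not overlap, and their means descended from 128 ± 28.8 over 69.8 ± 4.45 and 34.1 ± 3.17 to 18.5 ± 5.43 CPM (SD, n = 3). The log2 fold change was -0.87 ± 0.16 with *E. coli* (adjusted p = 0.000411), -1.90 ± 0.18 with IFN-γ (adjusted p = 2.14e-07) and -2.77 ± 0.20 with both (adjusted p = 2.11e-09). The level with both stimuli was thus 6.82-fold below that of unstimulated cells. The lowest count behind these values was 19 and the highest 419, far from the highest counts of the set.

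*Tspan13*, a tetraspanin whose role in leukocytes is little described, was at 163, 187 and 142 CPM in unstimulated libraries a to c. It was at 47.8, 53.1 and 46.1 CPM with *E. coli*, at 77.8, 62.6 and 69.5 with IFN-γ and at 42.8, 43.5 and 39.3 with both. All stimulated libraries lay below the unstimulated ones, and those with IFN-γ alone lay between these and the *E. coli* libraries. The means were 164 ± 22.5 CPM (SD, n = 3) unstimulated, 49 ± 3.67 after *E. coli*, 70 ± 7.61 after IFN-γ and 41.9 ± 2.26 with both. It fell by 1.73 ± 0.13 on the log2 scale with *E. coli* (adjusted p = 1.13e-08), by 1.22 ± 0.13 with IFN-γ (adjusted p = 6.72e-07) and by 1.96 ± 0.14 with both (adjusted p = 1.26e-09). The *E. coli* libraries held less *Tspan13* than those with IFN-γ alone, and for *Tspan32* the order was the reverse, a difference between these stimuli that was not tested.

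B cell and neutrophil markers were also lower in some of these groups. Of the 5 B cell markers tested, 5 were called lower with *E. coli* and 4 with IFN-γ. With both stimuli 0 were called by edgeR, 0 by DESeq2 and 1 was at an unadjusted p under 0.05. Their sum was 119 to 221 CPM in unstimulated libraries a to c, 41.7 to 78 with *E. coli*, 61 to 99.5 with IFN-γ and 125 to 137 with both. The neutrophil markers summed to 560 to 696 CPM in unstimulated libraries a to c and to 593 to 693 with IFN-γ. With *E. coli* they summed to 361 to 393 CPM and with both stimuli to 318 to 358, below every unstimulated library. Of the 3 tested, 1 was called higher and 1 lower with *E. coli*, 1 higher and 1 lower with IFN-γ, and 1 higher and 2 lower with both. The part of these cells in the falls of *Tspan32* and *Tspan13* was not tested.

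*Tspan14* belongs to the tetraspanins that carry the protease ADAM10 to the cell surface. Its levels were 109, 106 and 99.7 CPM in unstimulated libraries a to c, 103, 104 and 106 with *E. coli*, 88.4, 88.1 and 106 with IFN-γ and 64.6, 56.6 and 76 with both. The libraries with both stimuli lay below all others, and the other groups overlapped. The change with both was -0.68 ± 0.13 (adjusted p = 0.000234), and neither *E. coli* (-0.00 ± 0.12, adjusted p = 0.989) nor IFN-γ alone (-0.16 ± 0.12, adjusted p = 0.348) gave a call.

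*Cd37* is carried mainly by B cells and other leukocytes and is known to limit their activation. It was at 727, 969 and 763 CPM in unstimulated libraries a to c, at 715, 655 and 706 with *E. coli*, at 793, 728 and 765 with IFN-γ and at 604, 565 and 606 with both. The libraries with both stimuli lay below all others of the set, by a small margin against *E. coli*. The change with both was -0.47 ± 0.12 (adjusted p = 0.00243), and -0.66 after correction for repeated identifiers. With *E. coli* alone the groups also did not overlap, but the change of -0.24 ± 0.11 gave an adjusted p of 0.118.

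The other 4 members gave no call in any comparison with unstimulated libraries a to c. *Cd63*, the member of granules and late endosomes, ran from 858 to 1105 CPM in unstimulated libraries a to c, and its group means as deposited had a range of 0.16 in mean log2 CPM over the 4 groups. Its change was 0.15 ± 0.12 with *E. coli* (adjusted p = 0.372), 0.02 ± 0.12 with IFN-γ (adjusted p = 0.92) and 0.07 ± 0.12 with both (adjusted p = 0.655). After correction for repeated identifiers the *E. coli* value was 0.35 ± 0.12 and passed the threshold, with an adjusted p of 0.0292 in a range of 0.0292 to 0.671 over its alternatives. *Cd81*, which is carried by many cell types, had group means between 53.5 and 67.6 CPM. Each stimulated group overlapped the unstimulated one, while the 58.4 to 72.6 CPM with *E. coli* lay above the 51.3 to 57.8 with IFN-γ, a difference that was not tested. *Cd82*, which binds integrins and limits cell movement, had group means from 41.8 CPM with *E. coli* to 52 unstimulated. Its change with *E. coli* was -0.31 ± 0.15 (adjusted p = 0.138), and -0.44 without unstimulated library c, with an adjusted p of 0.0466 in a range of 0.0466 to 0.418 over its alternatives. *Cd151*, which binds laminin-receptor integrins, had group means between 33.1 and 45.8 CPM. Here too each stimulated group overlapped the unstimulated one, and the 39.7 to 54.9 CPM with *E. coli* lay above the 30.5 to 37.7 with IFN-γ, again without a test.

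**Figure D3:**
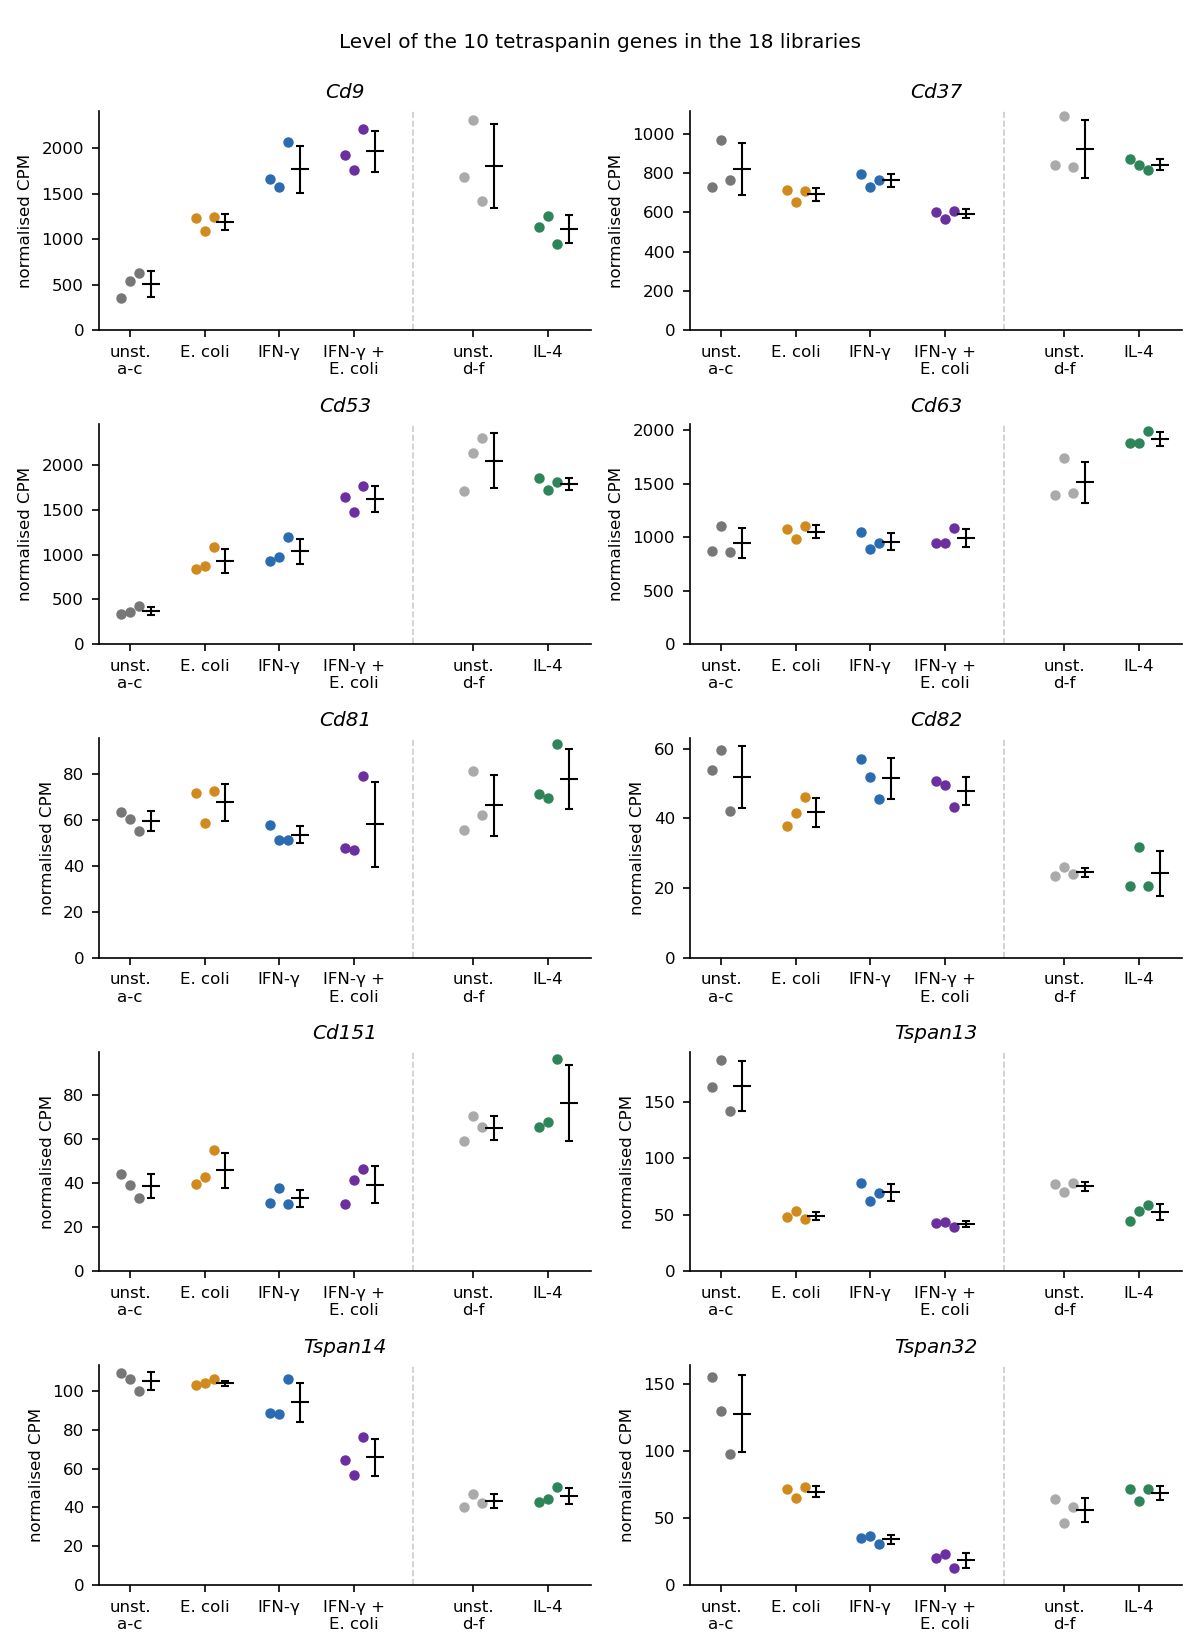
Normalized CPM of each of the 10 members in each of the 18 libraries, with the mean and SD of the 3 libraries of a group beside the points and a dashed line between the sets. *Cd9* and *Cd53* climb and *Tspan32* descends from unstimulated cells to those with both stimuli, and *Cd63* with IL-4 sits above unstimulated libraries d to f, at 1877 to 1994 against 1392 to 1735 CPM.

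Whether *E. coli* added to the effect of IFN-γ was read from the libraries with both stimuli against those with IFN-γ. In that comparison 5 members were called, 1 higher and 4 lower, where 12.2% of all genes were called, 6.26% higher and 5.98% lower. All 10 members differed by less than a factor of 2, where 4.08% of all genes were called at that factor or more, and the median of the members was -0.03 against 0.01 for all genes. *Cd53* was higher by 0.65 ± 0.13 (adjusted p = 0.00319), and by 0.91 ± 0.14 after correction for repeated identifiers. *Tspan13* changed by -0.74 ± 0.15 (adjusted p = 0.00252), and *Tspan32* changed by -0.87 ± 0.23 (adjusted p = 0.0191). These members thus moved further with both stimuli, in the direction they took with IFN-γ. *Tspan14* changed by -0.52 ± 0.13 (adjusted p = 0.0128) and *Cd37* by -0.37 ± 0.12 (adjusted p = 0.0461). The change of *Cd9* was 0.15 ± 0.16 (adjusted p = 0.626), and its libraries overlapped. The call of *Tspan32* was lost without IFN-γ library 1 (-0.86, adjusted p = 0.0593) or 2 (-0.82, 0.0605) and without library 3 with both stimuli (-0.67, 0.0731), in a range of 0.00106 to 0.0731 over its alternatives. That of *Tspan14* was lost without IFN-γ library 3 (-0.43, 0.0613) or library 2 with both stimuli (-0.42, 0.0863), in a range of 0.00418 to 0.0863. *Cd37* passed by a narrow margin. Its call ended with DESeq2's size factors (0.0567), with all 18 libraries in 1 fit (0.0887) and, at 0.0501 to 0.155, without any library of IFN-γ, *E. coli* or both stimuli or without unstimulated library c, in a range of 0.00367 to 0.155. Where the call of *Cd37* ended, its change was -0.41 to -0.34. Of the markers tested in the same comparison, 3 of 5 for B cells were called higher (median 0.84), 1 of 2 for mast cells higher (1.78), 1 of 3 for neutrophils higher and 1 lower (-0.64), and 1 of 4 for platelets higher and 1 lower (0.15). Of 9 macrophage markers 0 were called by edgeR, 0 by DESeq2 and 2 were at an unadjusted p under 0.05. The part of these cells in the differences of the members was not tested.

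The reverse comparison, of both stimuli with *E. coli* alone, gave calls for 4 members, 2 higher and 2 lower, where 32.8% of all genes were called, 17.5% higher and 15.3% lower. At a factor of 2 or more 1 member and 13.4% of all genes were called. The median of the members was -0.21 against -0.02 for all genes. *Tspan32* had the largest difference, with -1.89 ± 0.21 (adjusted p = 1.01e-06). *Cd53* was higher by 0.80 ± 0.13 (adjusted p = 0.000126) and *Cd9* by 0.72 ± 0.17 (adjusted p = 0.0024). Correction for repeated identifiers gave 0.92 ± 0.14 for *Cd53* and 0.83 ± 0.19 for *Cd9*. *Tspan14* changed by -0.67 ± 0.13 (adjusted p = 0.000421). *Tspan13* did not pass the test, at -0.23 ± 0.15 (adjusted p = 0.253), although its 2 groups did not overlap. *Cd63* changed by -0.08 ± 0.12 (adjusted p = 0.65) as deposited and by -0.40 ± 0.12 (adjusted p = 0.013) after correction for repeated identifiers, and *Cd37* by -0.23 ± 0.12 (adjusted p = 0.145) and -0.40 ± 0.11 (adjusted p = 0.00796). Over their alternatives these adjusted p ranged from 0.013 to 0.856 and from 0.00796 to 0.309. With the replicate number as a block *Cd37* also passed, at -0.23 ± 0.08 (adjusted p = 0.0252). Without library 3 with both stimuli *Cd81* was called, at -0.51 (adjusted p = 0.0154, in a range of 0.0154 to 0.8), and that library held 79.2 CPM of *Cd81* against 47.9 and 46.8 in the others of its group. In this comparison 5 of 5 B cell markers tested were called higher (median 1.46), as were 2 of 2 for mast cells (2.06) and 4 of 9 for macrophages (0.54). Of 3 neutrophil markers 1 was called higher and 1 lower (0.12), and of 4 platelet markers 1 was called higher and 2 lower (-0.40). Their part was not tested.

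The interaction of both stimuli measures how far their joint effect departs from the sum of the log2 effects of each. It was called for 2 members, 1 above and 1 below 0, where 4.62% of all genes were called, 2.58% above and 2.04% below. At a factor of 2 or more 1 member and 2.48% of all genes were called, with a median of -0.08 for the members and 0.00 for all genes. *Cd9* rose less with both stimuli than the sum of its separate rises, with an interaction of -1.07 ± 0.23 (adjusted p = 0.0115). *Tspan13* fell less than the sum of its separate falls, with 0.99 ± 0.20 (adjusted p = 0.006). *Cd9* reached 3370 counts, 82.3% of the number of identifiers, in a library with both stimuli, and had 858 to 1537 in unstimulated libraries a to c. After correction for repeated identifiers its interaction was -1.63 ± 0.28 (adjusted p = 0.00167, in a range of 1.85e-08 to 0.0409 over its alternatives). *Tspan13* had at most 440 counts, which is 10.7% of the number of identifiers.

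*Tspan32* had an interaction of 0.00 (adjusted p = 0.999), and values from -0.21 to 0.19 over its alternatives. The SE by DESeq2, 0.32, is given in place of edgeR's, which is not reliable for a value so near 0. *Cd53* had an interaction of -0.67 ± 0.19 and an adjusted p of 0.0507, just outside the threshold. It was called by DESeq2 (adjusted p = 0.0222), without the filter on low counts (0.00189), with at least 10 counts in every library (0.0486), after correction for repeated identifiers (0.0222), without unstimulated library c (0.0376) and without library 3 with both stimuli (0.0308). Over its alternatives the value ran from -0.80 to -0.56 and the adjusted p from 0.00189 to 0.138. *Tspan14* had -0.52 ± 0.18 (adjusted p = 0.111), and -0.67 without library 3 with both stimuli (adjusted p = 0.0314, in a range of 0.0314 to 0.275). The interaction was also called above 0 for 5 of 5 B cell markers (median 2.68, where that of all genes was 0.00) and 1 of 9 macrophage markers (0.82), and below 0 for 1 of 4 platelet markers (0.09). Of the 2 mast cell and 3 neutrophil markers tested 0 were called by edgeR, 0 by DESeq2 and 0 at an unadjusted p under 0.05. The part of these cells in the interactions of *Cd9* and *Tspan13* was not tested.

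With IL-4, which drives type 2 responses, the called members were both lower. *Cd9* was at 1686, 2312 and 1416 CPM in unstimulated libraries d to f and at 1133, 1255 and 948 with IL-4. The groups did not overlap, and library e stood above d and f. The means were 1804 ± 460 and 1112 ± 155 CPM (SD, n = 3), a 1.62-fold fall (log2 fold change -0.70 ± 0.18, adjusted p = 0.0332). *Tspan13* was at 77.4, 70.6 and 77.8 CPM unstimulated and at 44.9, 53.3 and 58.9 with IL-4, again without overlap. Its means were 75.3 ± 4.06 and 52.3 ± 7.03 CPM, with a change of -0.53 ± 0.15 (adjusted p = 0.045). Both calls were fragile. Leaving out any of the IL-4 libraries ended them, with adjusted p of 0.0678 to 0.131 for *Cd9* and 0.0676 to 0.218 for *Tspan13*, and *Tspan13* also lost its call without unstimulated library d (0.0764) or f (0.11). The log2 fold changes in these fits were -0.80 to -0.61 for *Cd9* and -0.63 to -0.42 for *Tspan13*, against -0.70 and -0.53 with all libraries. Over all alternatives the adjusted p ran from 4.61e-06 to 0.131 for *Cd9* and from 0.0063 to 0.218 for *Tspan13*.

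*Cd63* showed the reverse direction. Its levels were 1392, 1735 and 1411 CPM in unstimulated libraries d to f and 1877, 1877 and 1994 with IL-4. Every IL-4 library lay above every unstimulated one, by a small margin against library e. The means were 1513 ± 193 and 1916 ± 67.1 CPM, and the change of 0.34 ± 0.12 gave an adjusted p of 0.098. It was called without library e, at 0.45 ± 0.08 (adjusted p = 0.00172), and in a fit of all 18 libraries, at 0.35 ± 0.12 (adjusted p = 0.0438), in a range of 0.00172 to 0.265 over its alternatives. Of unstimulated libraries d to f, library e held the highest levels of *Cd9*, *Cd37*, *Cd63*, *Cd81*, *Cd82*, *Cd151* and *Tspan14*. It also differed most from its replicates, with a chi-square per gene of 21.4 against library d and 19.8 against f, where d and f differed by 7.17. Reads of a processed copy of the gene, *Cd63-ps*, were counted separately, at 0 to 6 per library in the first set and 151 to 333 in the other, and reads that match both places cannot be told apart.

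The remaining members gave no call with IL-4. *Tspan32* was at 63.9, 46.2 and 58.3 CPM in unstimulated libraries d to f and at 71.4, 62.4 and 71.8 with IL-4, so that the groups overlapped (0.29 ± 0.16, adjusted p = 0.275). *Cd53* was at 1718, 2142 and 2304 CPM and at 1855, 1725 and 1809, with a change of -0.19 ± 0.12 (adjusted p = 0.365). The changes of *Cd37*, *Cd81*, *Cd82*, *Cd151* and *Tspan14* lay between -0.13 and 0.23. In the same comparison the summed neutrophil markers went from 1662 to 1979 CPM in unstimulated libraries d to f to 756 to 820 with IL-4, without overlap, and of the 3 tested 1 was called higher and 1 lower. Of the 9 macrophage markers 5 were called lower, and their sum was 3404 to 4245 CPM unstimulated and 2447 to 2768 with IL-4. Of the 4 B cell markers tested 3 were called higher, and of the 5 platelet markers 1 was called lower, with sums of 677 to 830 CPM unstimulated and 596 to 663 with IL-4. Both mast cell markers tested were at an unadjusted p under 0.05, and 0 were called by edgeR and 0 by DESeq2. The part of these cells in the changes of *Cd9*, *Tspan13* and *Cd63* was not tested.

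The responses to IL-4 and to the other stimuli were set against each other in a fit of all 18 libraries, with each response taken against unstimulated cells in the same layout. The sets differ in their files and in the highest counts they hold, the library method of each is not stated, and a difference between responses cannot be told apart from a difference in how the sets measure a gene. The IL-4 response differed from the *E. coli* response for 4 members, 2 above and 2 below 0, where 28.1% of all 10671 genes were called, 14.4% above and 13.7% below, and 16.7% at a factor of 2 or more. From the IFN-γ response it differed for 4, 2 above and 2 below, where 27.8% of all genes were called, 13% above and 14.7% below, and 16.8% at a factor of 2 or more. From the response to both it differed for 5, 3 above and 2 below, where 39.2% were called, 18.5% above and 20.7% below, and 25.6% at a factor of 2 or more. The medians of the members were 0.08, 0.25 and 0.21, and those of all genes 0.04, 0.02 and 0.00. *Cd9* moved in opposite directions and differed by -1.94 ± 0.26 from *E. coli* (adjusted p = 9.83e-06), by -2.53 ± 0.27 from IFN-γ (adjusted p = 3.55e-07) and by -2.71 ± 0.27 from both (adjusted p = 6.12e-08). *Cd53* differed by -1.53 ± 0.20, -1.70 ± 0.20 and -2.38 ± 0.20 in the same order. After correction for repeated identifiers in the first set, the differences of *Cd9* were -2.54 ± 0.30, -3.18 ± 0.30 and -3.34 ± 0.30. Those of *Cd53* were then -1.92 ± 0.20, -1.93 ± 0.20 and -2.82 ± 0.20. For both genes IL-4 was the response without a rise.

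*Tspan32* showed the opposite sign, with differences of 1.15 ± 0.23 from *E. coli*, 2.16 ± 0.25 from IFN-γ and 3.00 ± 0.27 from both (adjusted p = 1.19e-08 for the last). *Tspan13* fell with all stimuli, yet less with IL-4, with differences of 1.19 ± 0.18, 0.66 ± 0.18 and 1.37 ± 0.19. *Tspan14* differed only from the response to both, by 0.70 ± 0.18 (adjusted p = 0.00332). *Cd63* gave differences of 0.17 ± 0.17, 0.29 ± 0.17 and 0.21 ± 0.17, none of them called, so that its response to IL-4 was not shown to differ from the others. *Cd37* differed from the response to both by 0.28 ± 0.17 (adjusted p = 0.211), and was called with at least 10 counts in every library (0.0284), without unstimulated library e (0.0394) and after correction for repeated identifiers (0.0119), in a range of 0.0119 to 0.522.

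Markers of other cells also differed between these responses, given here for the differences from *E. coli*, from IFN-γ and from both in turn. Of the 5 B cell markers tested, 5, 4 and 3 were called above 0, with medians of 3.14, 2.49 and 1.63. Of the 9 macrophage markers, 1, 1 and 0 were called above 0 and 2, 5 and 5 below, with medians of 0.28, -0.85 and -0.81. Of the 3 neutrophil markers, 1 was called above 0 each time and 0, 2 and 1 below, and of the 4 platelet markers 1, 2 and 2 above and 1 below each time. Of the 2 mast cell markers 0 were called by edgeR or DESeq2 in any of these, while 2 were at an unadjusted p under 0.05 in the difference from both and 0 in the others. The part of these cells in the differences of *Cd9*, *Cd53*, *Tspan13*, *Tspan14* and *Tspan32* was not tested.

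Of the 21 other tetraspanins looked for, 8 had enough counts to be tested in the first set and 5 in the IL-4 set. *E. coli* lowered 1 and raised none of the 8 (12.5%, where 30.2% of all genes were called), with a list median of -0.12, and this gene was *Tspan17* (-0.91 ± 0.18, adjusted p = 0.000878). *Tspan17*, like *Tspan14* and *Tspan5*, belongs to the subgroup that escorts ADAM10. IFN-γ lowered 4 of the 8 (50%, where 31.6% of all genes were called and 16% were lower), among them *Tspan17* (-1.05 ± 0.20, adjusted p = 0.000442) and *Tspan2* (-1.23 ± 0.42, adjusted p = 0.0335), with a median of -0.30. Both stimuli raised 2 and lowered 3 (62.5%, where 49% of all genes were called), with a median of -0.37. *Tspan3* rose from 45.3 ± 6.78 to 171 ± 50.8 CPM (1.90 ± 0.26, adjusted p = 6.80e-06), more than any other tetraspanin tested except *Cd9* and *Cd53*. *Tspan5* changed by -0.72 ± 0.14 (adjusted p = 0.0003). *Tspan15* (-0.18 ± 0.42, adjusted p = 0.739) and *Tspan33* (0.02 ± 0.24, adjusted p = 0.952), named after their values were seen because they belong to the subgroup that escorts ADAM10, were not called, and *Tspan10* of that subgroup had too few counts to be tested.

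*Tspan2* changed by -2.23 ± 0.51 with both (adjusted p = 0.00136), at 22 counts or fewer in unstimulated libraries. With both stimuli it had 2 to 3 counts, not above the smallest count told apart from 0, so the size of this fall is uncertain. *Tspan31*, raised by 1.19 ± 0.32 with both (adjusted p = 0.00511), shares 641 exon bases with *Cdk4* on the opposite strand, and *Tspan4*, lowered by IFN-γ (-1.05 ± 0.33, adjusted p = 0.0226), shares 292 with *Chid1*. The strand setting of the counting is not stated, and these pairs could not be told apart where they overlap. With IL-4, 0 of the 5 tested were called by edgeR, 0 by DESeq2 and 0 at an unadjusted p under 0.05, with a median of 0.14.

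Tetraspanins act through partner proteins, and of 18 partner genes 15 were tested in the first set. *E. coli* raised 4 and lowered 7 (73.3%, where 30.2% of all genes were called), with a median of -0.23. Among the falls were those of *Itga4* and *Itgb7*, the chains of the gut-homing integrin of leukocytes. *Itga4* went from 320 ± 38.5 to 93.2 ± 13.3 CPM (-1.78 ± 0.13, adjusted p = 9.68e-09) and *Itgb7* from 341 ± 41.3 to 118 ± 11.2 CPM (-1.53 ± 0.14, adjusted p = 1.54e-07). Both chains thus fell together while *Adam10*, the protease that several tetraspanins escort, rose by 0.64 ± 0.13 (adjusted p = 0.000921) and the integrin chain *Itgam* by 0.39 ± 0.13 (adjusted p = 0.0292).

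IFN-γ raised 5 partner genes and lowered 2 (46.7%, where 31.6% of all genes were called), with a median of 0.28. The protease gene *Adam17* went from 61.7 ± 3.15 to 125 ± 15.4 CPM (1.01 ± 0.13, adjusted p = 5.52e-06), and the scavenger receptor *Cd36* from 71 ± 16.2 to 150 ± 20.3 CPM (1.05 ± 0.20, adjusted p = 0.000418). With both stimuli *Cd36* was lower than unstimulated, at 40.3 ± 4.82 CPM (-0.83 ± 0.22, adjusted p = 0.0047), and lower than with IFN-γ (-1.89 ± 0.22, adjusted p = 9.43e-06). With *E. coli* alone, a value singled out after it was seen, it was at 27.4 ± 12 CPM (-1.43 ± 0.22, adjusted p = 7.41e-05). *Hbegf*, whose product binds CD9, changed by -2.30 ± 0.41 (adjusted p = 0.000259), at 55 counts or fewer in unstimulated cells, while *E. coli* raised it by 0.73 ± 0.27 (adjusted p = 0.0453). Both stimuli raised 3 and lowered 5 (53.3%, where 49% of all genes were called), with a median of -0.01, and *Hbegf* was again lower (-1.10 ± 0.35, adjusted p = 0.0145), with libraries that overlapped the unstimulated ones. In both groups with IFN-γ, *Cd9* was called higher and *Hbegf* lower, while with *E. coli* alone each of these genes was called higher. A link between them was not tested.

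IL-4 raised 2 of the 16 partner genes tested in its set and lowered 4 (37.5%, where 10.3% of all genes were called), with a median of -0.12. *Hbegf* rose from 6.9 ± 1.45 to 17.6 ± 5.05 CPM (1.37 ± 0.28, adjusted p = 0.013). *Cd9* was called lower in this comparison, a call that ended on leaving out any of the IL-4 libraries. *Cd47*, the ligand of a receptor that restrains phagocytes, rose from 1388 ± 332 to 2108 ± 28.3 CPM (0.60 ± 0.16, adjusted p = 0.0414). *Cd36* fell from 112 ± 21.4 to 32.9 ± 4.39 CPM (-1.77 ± 0.18, adjusted p = 0.000223), and *Itga4* from 296 ± 59.7 to 181 ± 18.2 CPM (-0.72 ± 0.16, adjusted p = 0.0163).

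The list of 13 late endosome and exosome genes, the machinery on whose membranes CD63 resides, had 11 tested genes in each set, as *Hgs* and *Rab27b* were too low. *E. coli* raised 2 of the 11 (18.2%), IFN-γ 4 (36.4%) and both stimuli 6 (54.5%), and none was called lower. Of all genes 30.2%, 31.6% and 49% were called in these comparisons, and 13.5%, 15.6% and 23.9% were called higher, so that the share called lay below that of all genes with *E. coli* and near it with IFN-γ and both. The list medians were 0.05, 0.26 and 0.38. *Rab7*, the GTPase of late endosomes, rose from 241 ± 18.7 CPM unstimulated to 340 ± 2.51 after *E. coli*, 360 ± 40.6 after IFN-γ and 441 ± 63.6 with both (0.87 ± 0.12, adjusted p = 7.70e-06 for the last). *Sdcbp* encodes syntenin, an adaptor that loads cargo into exosomes. It changed by 0.71 ± 0.12 with IFN-γ (adjusted p = 0.000166) and 0.83 ± 0.12 with both (adjusted p = 1.29e-05). *Rab27a*, which docks secretory vesicles at the membrane, changed by 0.68 ± 0.11 with IFN-γ (adjusted p = 0.000121) and 0.55 ± 0.11 with both (adjusted p = 0.000491). *Cd63* itself was not called in these comparisons. With IL-4, 0 of the 11 were called by edgeR, 0 by DESeq2 and 0 at an unadjusted p under 0.05, with a median of 0.01.

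Genes with the most similar pattern over the 12 libraries of the first set were sought for the 3 members whose group means ranged most widely, by Pearson correlation of log2 CPM. The libraries share their groups and their depth, so that the correlations mainly follow the group means and carry no test. *Tspan32*, with a range of 2.74 in mean log2 CPM, was most like the uncharacterized transcript *E130215H24Rik* (r = 0.991, n = 12 libraries), the lysosomal enzyme gene *Manba* (r = 0.983) and the villin-like gene *Vill* (r = 0.981). *E130215H24Rik* went from 58.9 CPM unstimulated to 25.3 after *E. coli*, 11.1 after IFN-γ and 4.5 with both. *Cd53*, with a range of 2.12, was most like *Thbs1* (r = 0.998), which encodes thrombospondin, *Ube2d3* (r = 0.989) and *Hdc* (r = 0.988). *Hdc*, the enzyme that makes histamine, went from 20.4 CPM to 147, 166 and 477 in the same order. *Cd9*, with a range of 1.98, was most like the matrix glycoprotein gene *Emilin2* (r = 0.989), *Cdv3* (r = 0.985) and *Crtap* (r = 0.983). The highest counts of *Thbs1* and *Emilin2* were 3583 and 2589, in the range where the correction for repeated identifiers matters.

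On the genome, 4 of the 10 members lie on chromosome 7. *Tspan32* (ENSMUSG00000000244, chr7:143005046-143019644, plus strand) and *Cd81* (ENSMUSG00000037706, chr7:143052739-143067934, plus strand) are 33095 bases apart, and *Tspan32* fell with *E. coli*, IFN-γ and both while *Cd81* was not called. *Cd151* (chr7:141467392-141471473, plus strand) and *Cd37* (chr7:45233632-45239115, minus strand) lie on the same chromosome. *Cd9* (ENSMUSG00000030342) lies at chr6:125460266-125494791, *Cd53* (ENSMUSG00000040747) at chr3:106759921-106790149 and *Tspan13* (ENSMUSG00000020577) at chr12:36014557-36042500, all on the minus strand. Antisense transcripts overlap exons of some members, but at counts far below theirs. *Gm26728*, which shares 218 exon bases with *Cd9*, had at most 11 counts in any library, and *Tspan32os*, which shares 271 with *Tspan32*, at most 4.

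All 10 members had promoter windows in RefSeq on GRCm38.p6, 15 windows in all, and the 200 bases that end 51 bases before the start of transcription were searched on both strands. The letters searched were TTCNNNGAA, the core of sites for STAT proteins that IFN-γ activates, the same with 1 base more between TTC and GAA, the spacing preferred by STAT6 downstream of IL-4, GAAA repeated after 2 bases as in interferon response elements, GGGCGG of Sp1 sites, GAGGAA of PU.1 sites, and the NF-kappaB consensus. GGGCGG and GAGGAA were chosen after some of the windows had been seen. TTCNNNGAA, the repeated GAAA and the NF-kappaB consensus were in 0 of the 15 windows, and in 5.76%, 2.4% and 5.71% of 32851 mouse promoters of the same length. The wider spacing of TTC and GAA was in 1 window, that of *Cd53*, and in 4.78% of all promoters. GGGCGG and GAGGAA were in 4 windows each, and in 24.6% and 18.8% of all promoters. A match is a description of the letters, and its absence says only that they are not in the window. The windows of the 4 members that moved most in the first set, all called with *E. coli*, IFN-γ and both, are printed 5′ to 3′ with matches in capitals. They lie at chr6:125494811-125495010 for *Cd9*, chr3:106790200-106790399 for *Cd53* and chr12:36042529-36042728 for *Tspan13*, on the minus strand, and at chr7:143004796-143004995 on the plus strand for *Tspan32*.
Cd9: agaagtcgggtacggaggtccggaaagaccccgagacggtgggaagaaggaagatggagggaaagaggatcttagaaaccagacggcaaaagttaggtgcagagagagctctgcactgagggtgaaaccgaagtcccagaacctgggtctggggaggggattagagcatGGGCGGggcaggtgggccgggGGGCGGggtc
Cd53: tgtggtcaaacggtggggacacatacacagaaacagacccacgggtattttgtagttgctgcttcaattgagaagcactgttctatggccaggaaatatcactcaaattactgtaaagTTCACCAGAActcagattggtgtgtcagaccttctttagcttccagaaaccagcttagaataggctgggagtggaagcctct
Tspan13: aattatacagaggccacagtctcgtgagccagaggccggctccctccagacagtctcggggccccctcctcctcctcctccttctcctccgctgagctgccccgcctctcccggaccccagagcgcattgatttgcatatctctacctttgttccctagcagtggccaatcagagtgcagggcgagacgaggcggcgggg
Tspan32: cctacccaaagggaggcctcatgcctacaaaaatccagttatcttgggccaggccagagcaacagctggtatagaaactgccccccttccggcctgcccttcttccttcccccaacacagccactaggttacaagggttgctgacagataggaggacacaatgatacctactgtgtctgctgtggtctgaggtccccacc
The window of *Cd9* holds GGGCGG at 2 places and that of *Cd53* holds the wider spacing at 1, while those of *Tspan13* and *Tspan32* hold none of the letters searched.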

How the data were processed

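Per the labels and the methods given for them, the authors made CEL-Seq2 libraries from purified RNA. The labels also name an RNA-Seq experiment on HiSeq, without saying which libraries it holds. The authors aligned reads to GRCm38 with TopHat2 2.1.0 and counted uniquely aligned reads to Ensembl genes with HTSeq 0.6.1 in union mode. The submitters' processing notes also name fastp 0.20.1 and STAR 2.7.2a, without saying for which libraries. The deposited values are counts, without normalization. Rows that name no gene held 21.12% to 39.42% of the reads in the first set and were left out. Genes were named by GENCODE, which matched 98.3% and 99.7% of the identifiers of the 2 sets. The members and lists were chosen with earlier results of these data known.

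R 4.3.3 was used with edgeR 4.0.16 and DESeq2 1.42.0. Low genes were removed with filterByExpr, libraries were scaled with TMM, and edgeR's glmQLFTest gave p-values, Benjamini-Hochberg adjusted over all genes tested. The 12 libraries of the first set, the 6 of the IL-4 set and all 18 were each fitted in a model of their own, the last with 10671 genes. The SE is the size of the log2 fold change divided by the root of its F statistic, which is approximate and not reliable near 0. Replicates differed beyond counting error: the chi-square divided by the number of genes was 1.59 to 5.46 between replicates of the first set and 3.51 to 21.4 in the other, for genes with at least 10 counts. The intervals of 3 counts cover counting error only.

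All 10 members are named. Of the other lists, at most 3 called genes with the largest rise and 3 with the largest fall were eligible for naming in each comparison with unstimulated cells, with exceptions marked in the text, and 1 gene that the rule allows is not reported here. Of 9 genes known to respond to a stimulus, at most 4 were eligible for naming beside the labels. Genes of like pattern used log2 CPM with a prior count of 2. Alternatives were DESeq2's size factors, DESeq2, no filter, at least 10 counts in every library, a minimum factor of 2, the omission of each library in turn, only the 6 libraries compared, the replicate number as a block, all 18 libraries in 1 fit, and counts c corrected as -K ln(1 - c/K) with K = 4096. The scripts' steps were tested on simulated counts.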

Additional observations from a re-analysis of the deposited data

Results flagged for a closer look

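In 15 cases the effect of a stimulus on a member differed from its effect in another setting, by the test of the difference itself in edgeR. The effect of IFN-γ and *E. coli* together departed from the sum of the log2 effects of each for *Cd9* (-1.07) and *Tspan13* (0.99). The IL-4 response differed from the *E. coli* response for *Cd9* (-1.94), *Cd53* (-1.53), *Tspan13* (1.19) and *Tspan32* (1.15). From the IFN-γ response it differed for *Cd9* (-2.53), *Cd53* (-1.70), *Tspan13* (0.66) and *Tspan32* (2.16). From the response to both it differed for *Cd9* (-2.71), *Cd53* (-2.38), *Tspan13* (1.37), *Tspan14* (0.70) and *Tspan32* (3.00). All values are differences of log2 fold changes. Members called were 2 of 10 for the interaction, where 4.62% of all genes were called. For the IL-4 response against that to *E. coli*, IFN-γ and both they were 4, 4 and 5 of 10. Of all genes 28.1%, 27.8% and 39.2% were called there. In a list of 10 genes, these shares do not set the members apart from other genes. The comparisons share their unstimulated libraries, and IL-4 and the other stimuli lie in different sets, so that stimulus and set cannot be told apart in them.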

How the results depend on the processing

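Under the alternatives other than the minimum factor of 2 and the correction for repeated identifiers, leaving out each library included, 1822 of 1860 log2 fold changes of members kept their side of the threshold, 25 lost the call, 13 gained it and 0 calls reversed. Some values that were not called changed sign, as for *Cd37* with IFN-γ, at -0.18 to 0.06 on leaving out a library. No alternative moved the median of all genes by more than 0.06. At a factor of 2 or more, all-gene calls fell to 1023 with *E. coli*, 1186 with IFN-γ, 2210 with both and 478 with IL-4. They fell to 403 for both against IFN-γ, 1325 for both against *E. coli*, 245 for the interaction, and 1787, 1789 and 2728 for the IL-4 response against that to *E. coli*, IFN-γ and both. Members called were then 4 with both stimuli, where 6 were called without that minimum, 0 with IL-4, 0 for both against IFN-γ, 1 for both against *E. coli* and 1 for the interaction, and in the comparisons with 0 no member reached that factor. For the IL-4 response against that to *E. coli*, IFN-γ and both, 4, 3 and 4 members were called at that factor. IL-4 calls were 1634 without the filter and 1892 with all 18 libraries in 1 fit, against 1089. The cause was not tested.

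Leaving out a library left 0 to 3 members and 483 to 1394 genes called with IL-4, 3 to 5 and 739 to 1232 for both against IFN-γ, and 2 to 4 and 266 to 562 for the interaction, where fewer libraries enter the fit. Correction for repeated identifiers, chosen after seeing the data, kept 85 of 90 member values on their side and brought 5 past the threshold.

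The replicate number as a block, in the 9 stimulated libraries of the first set, gave 1429 calls for both against IFN-γ, where 1210 were called without it, and 3447 for both against *E. coli*, where 3237 were. It brought *Cd37* past the threshold in the latter (-0.23, adjusted p = 0.0252) and changed no other member's call. Same-numbered libraries correlated at 0.0706 to 0.163 between *E. coli* and both stimuli and at -0.045 to 0.331 between IFN-γ and both. For libraries with different numbers the ranges were -0.238 to 0.197 and -0.377 to 0.266. Whether the numbers pair the samples is not stated and cannot be told from these values, and the main fits hold no block. Unstimulated libraries carry letters, and no block could be made for them. Depth limits the lowest genes, since 3 counts equal up to 1.97 CPM.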
